A study of Mus musculus with 7 samples.

Results

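Mouse Rpl39l, the paralogue of the ribosomal protein gene Rpl39, stood at the level of background on both arrays of tenascin-C knockout fibroblasts and was well above it on the 5 other arrays, while neither probe set listed with Rpl39 passed the test for a difference. The genes described here are 4 pairs of a cytosolic ribosomal protein gene and a paralogue with a tissue-restricted or stress-linked pattern: Rpl39 and Rpl39l, Rpl3 and Rpl3l, Rpl22 and Rpl22l1, and Rps27 and Rps27l. They were chosen by symbol, the set having been drawn up after Rpl39l was seen to be low in knockout, so the knockout values of Rpl39l are a description with no test. Of the 8 genes, 4 had a probe set listed with that symbol alone (Rpl39l, Rpl3l, Rpl22 and Rps27l), among 19937 genes with such a probe set in all. All 4 passed the filter on low signals, which kept 16801 genes. The other 4 genes (Rpl39, Rpl3, Rpl22l1 and Rps27) were represented only by 11 probe sets that are listed with other symbols as well, mostly predicted genes, pseudogenes or a retrogene, so their values belong to the probe set and not to 1 gene.

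The study hybridised total RNA of mouse embryonic fibroblasts (MEFs) to Affymetrix whole-transcript arrays, 1 clone per array. There were 2 knockout arrays (TNCKO, from a tenascin-C knock-out mouse), 2 knockdown arrays (wild-type MEFs stably transfected with a tenascin-C shRNA) and 3 wild-type arrays. All clones were immortalised spontaneously and cultured for 2 days in medium with serum, and no arrays of cells with a control hairpin were analysed here. No label ties a clone to an animal of its own, so each p-value reflects only how far these clones differ from one another. That spread may be technical in part, although the 2 knockout clones also differed in sex-linked genes, as given below. Values are the authors' log2 signals, on which a difference of 1 is a doubling.

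Ribosomal proteins are made in near-equal numbers, and a few of their genes have paralogues whose product can take the place of the usual one in the ribosome. RPL39 is a very small protein of the large subunit at the nascent peptide exit tunnel, and RPL39L is its paralogue best known from male germ cells. RPL3 lies close to the peptidyl transferase centre and RPL3L replaces it in striated muscle. RPL22 binds RNA and in mouse represses its own paralogue Rpl22l1, and Rps27l is a target of p53, the stress-induced transcription factor.

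The targeted gene Tnc (probe set 10513739) had a log2 signal of 8.05 and 8.51 in knockout and 7.34 and 6.52 in knockdown, against 10.89, 11.42 and 11.38 in wild type. It fell in knockout (log2 difference -2.95 ± 0.295 SE, limma adjusted p = 0.042) and in knockdown (-4.30 ± 0.295 SE, limma adjusted p = 0.0339). The labels do not place this probe set relative to the deletion, so its residual signal in knockout checks the labels only in part. Of 16 fibroblast markers, 15 or 16 lay above the array median on every array, whereas 1 or 2 of 8 macrophage and blood markers, 1 or 2 of 8 endothelial markers and 2 of 8 epithelial markers did. Sex-linked genes differed between clones: Xist stood at 8.80 on knockout array 2 and between 3.51 and 3.77 on the others, and the Y-linked Eif2s3y stood at 3.77 on knockout array 2 and 5.46 on knockdown array 2, against 7.51 to 8.78 elsewhere. Results were therefore also computed without both of these arrays.

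The promoters of Rpl39l and Rpl39 are shown because these 2 genes form the pair in which the paralogue differed. Both are windows of 300 bases from RefSeq on GRCm38.p6, from 250 bases before to 50 after an annotated transcript start, written 5′ to 3′ in the direction of transcription. The start used for Rpl39 is the 5′ boundary of the gene, and that for Rpl39l lies 31 bases inside the boundary. Capitals mark the longest unbroken run of C and T between 10 bases before and 20 after the start, since mRNAs of ribosomal proteins typically begin with a tract of pyrimidines.
Rpl39l promoter, chr16:10169978-10170277, plus strand: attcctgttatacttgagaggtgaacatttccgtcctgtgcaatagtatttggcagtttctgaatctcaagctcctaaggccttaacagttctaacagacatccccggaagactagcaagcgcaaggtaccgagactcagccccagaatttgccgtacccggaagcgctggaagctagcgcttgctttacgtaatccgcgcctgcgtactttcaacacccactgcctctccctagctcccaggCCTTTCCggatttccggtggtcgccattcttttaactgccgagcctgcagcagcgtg
Rpl39 promoter, chrX:37085173-37085472, minus strand: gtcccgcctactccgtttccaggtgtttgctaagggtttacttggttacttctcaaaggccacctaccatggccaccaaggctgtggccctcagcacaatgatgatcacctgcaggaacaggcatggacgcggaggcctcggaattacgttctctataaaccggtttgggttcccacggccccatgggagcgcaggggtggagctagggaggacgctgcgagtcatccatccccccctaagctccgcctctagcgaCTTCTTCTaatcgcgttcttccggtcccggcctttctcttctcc
The run was 7 bases long in Rpl39l, where it began at -7 from the start used and ended just before it. In Rpl39 it was 8 bases long and began at 6 from the start. Neither run therefore lay at the first base of the annotated transcript. A run of 8 or more was found in 11.2% of 32841 promoter windows of this length. Both windows held 17 CpG dinucleotides, against a median of 7 over all windows. The letters CCGGAAG, searched on both strands, occurred 2 times in the Rpl39l window and 1 time in that of Rpl39, and at least once in 8.86% of all windows. Runs of 10 and 9 bases lay at the starts of Rpl22l1 and Rps27. In the windows of the other genes the longest runs were shorter: 5 and 4 in Rpl3l, 3 and 5 in Rpl22, and 7 and 4 in Rps27l.

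Rpl39l (gene identifier 68172, probe set 10433480) lies at chr16:10170197-10174911 of GRCm38.p6. It had log2 signals of 3.90 and 4.09 in knockout and 7.80 and 7.84 in knockdown, against 8.37, 8.34 and 7.91 in wild type. Both knockout arrays lay far below all others, and both knockdown arrays lay just below the wild-type range. Means with SD were 3.998 ± 0.136 over 2 knockout arrays and 7.82 ± 0.0237 over 2 knockdown arrays, against 8.21 ± 0.255 over 3 wild-type arrays. On the knockout arrays the probe set stood at percentile 23.5 and 27.1 of all probe sets, and on the knockdown and wild-type arrays between percentiles 79.2 and 84.1. The 25th percentile was 3.99 and 3.98 on the knockout arrays, so the measured difference of -4.21 (knockout minus wild type) is limited by background and the true one may be larger. It lay between -4.36 and -4.11 in every alternative processing and with any single array left out. In bulk RNA, fewer expressing cells and less RNA per cell cannot be told apart.

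Knockdown cells kept most of the Rpl39l signal. The knockdown difference from wild type was -0.39 ± 0.156 SE (95% confidence interval -0.77 to -0.01, limma adjusted p = 0.348, unadjusted p = 0.0472), and did not pass. Without wild-type array 3, the lowest of its group, the difference was -0.54, and without wild-type array 1, the highest, it was -0.31. In order, Rpl39l was highest in wild type, then knockdown, then knockout, and the step between wild type and knockdown did not pass after adjustment over all tested genes. Over the knockout and knockdown groups together the difference from wild type was -2.30, a mean of very unequal parts.

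**Figure D1:**
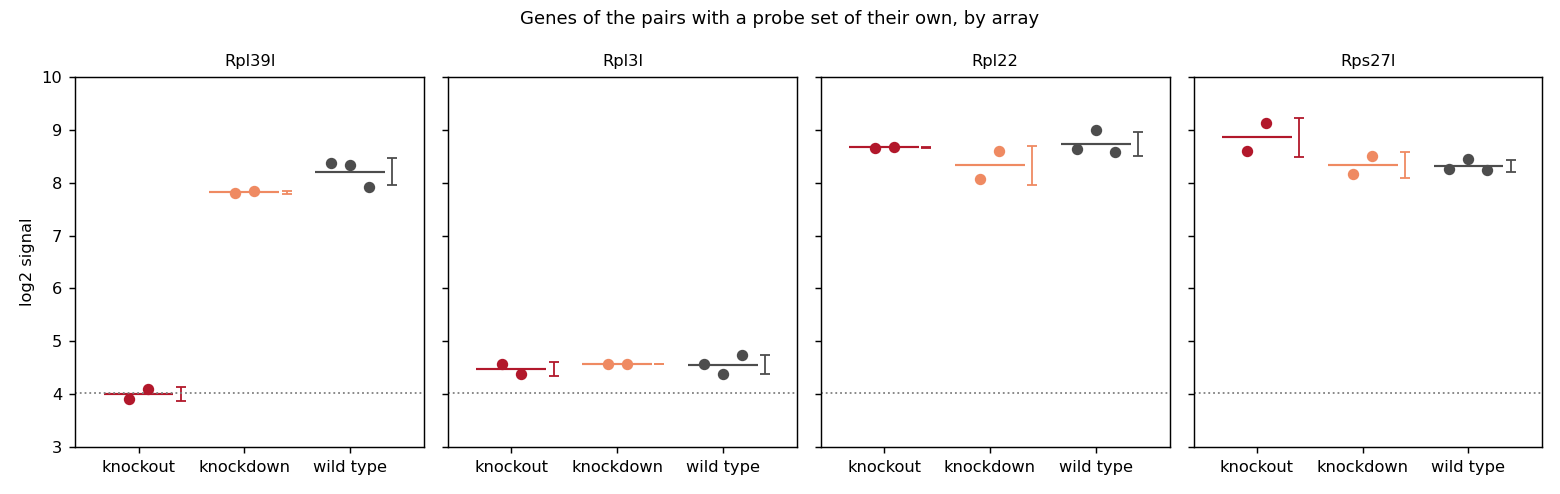
Log2 signal (vertical axis) on each array for the 4 genes with a probe set of their own, with knockout, knockdown and wild type from left to right. Points are arrays, horizontal bars are group means, error bars are 1 SD, and the dotted line is the mean of the arrays' 25th percentiles. Rpl39l lies on the dotted line in knockout, at 3.90 and 4.09, and between 7.80 and 8.37 elsewhere.

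The parent gene Rpl39 lies at chrX:37082518-37085222 and was represented by 2 probe sets, both listed with Rpl39 and the predicted gene Gm32211. Probe set 10604072 had log2 signals of 11.06 and 10.97 in knockout and 11.03 and 10.75 in knockdown, against 10.98, 10.99 and 10.92 in wild type. The groups overlapped on this probe set. Its difference was 0.06 in knockout (95% confidence interval -0.20 to 0.31, limma adjusted p = 0.867) and -0.07 in knockdown (-0.32 to 0.19, adjusted p = 0.845). Probe set 10427266 had signals of 10.34 and 10.55 in knockout and 9.89 and 9.62 in knockdown, against 10.52, 10.06 and 9.66 in wild type. Its wild-type arrays alone spanned more than the groups differed by. The differences were 0.37 in knockout (-0.26 to 1.00, limma adjusted p = 0.621) and -0.32 in knockdown (-0.95 to 0.31, adjusted p = 0.654). Single arrays moved both: the knockout difference was 0.59 without wild-type array 1 (limma adjusted p = 0.472, unadjusted p = 0.0273) and 0.16 without wild-type array 3. The knockdown difference was -0.10 without wild-type array 1, -0.53 without wild-type array 3 and -0.18 without knockdown array 2. Neither probe set listed with the parent gene therefore passed where the paralogue was at background, and the second left a wide interval. On probe set 10427266 knockout minus knockdown was 0.69 (limma adjusted p = 0.315, unadjusted p = 0.0497). Adjusted p-values of shared probe sets come from a fit over 26896 probe sets, in which 0.0521% passed in knockout and 0% in knockdown.

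In the pair of Rpl22 and Rpl22l1, a probe set of the paralogue was higher in both deficient groups and did not pass. Rpl22 had a lower mean in knockdown, without passing, and lay inside the wild-type range in knockout. Probe set 10491191, listed with Rpl22l1 and the predicted gene Gm15421, had log2 signals of 6.42 and 6.76 in knockout and 6.602 and 6.36 in knockdown, against 5.77, 5.79 and 6.08 in wild type. All 4 arrays of tenascin-C deficient cells lay above all 3 wild-type arrays, as did the arrays of 3.47% of probe sets in that comparison. The difference was 0.71 in knockout, a ratio of 1.63 (95% confidence interval 0.32 to 1.09, limma adjusted p = 0.223, unadjusted p = 0.00435). In knockdown it was 0.60, a ratio of 1.52 (0.21 to 0.99, limma adjusted p = 0.258, unadjusted p = 0.00908). In each comparison the direction held in 16 of 16 alternatives, with an unadjusted p under 0.05 in 15 of them. By limma the adjusted p was under 0.05 in 0 of them, with a range of 0.160 to 0.446 in knockout.

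The second probe set listed with the same symbols, 10528474, moved less. It had 6.20 and 6.24 in knockout and 6.55 and 6.21 in knockdown, against 6.05, 6.02 and 6.20 in wild type. Its knockout values touched the wild-type range, and both knockdown arrays lay above it, array 2 only just. The difference was 0.13 in knockout (limma adjusted p = 0.718) and 0.29 in knockdown (adjusted p = 0.421). The knockdown difference was 0.12 without knockdown array 1 and 0.46 without knockdown array 2.

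Rpl22 itself (gene identifier 19934, chr4:152324436-152334082, probe set 10510720) had log2 signals of 8.66 and 8.68 in knockout and 8.06 and 8.60 in knockdown, against 8.63, 8.998 and 8.59 in wild type. Knockout lay inside the wild-type range, and in knockdown only array 1 lay below it. The difference was -0.07 in knockout (95% confidence interval -0.54 to 0.40, limma adjusted p = 0.899) and -0.41 in knockdown (-0.88 to 0.06, adjusted p = 0.414). The knockdown value depended on knockdown array 1: without it the difference was -0.14, and without knockdown array 2 it was -0.68. Wild type was highest, then knockout, then knockdown, with no step passing.

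Rps27l (gene identifier 67941, chr9:66944624-66949522, probe set 10586604) was higher in knockout without passing. It had log2 signals of 8.60 and 9.13 in knockout and 8.17 and 8.51 in knockdown, against 8.27, 8.45 and 8.23 in wild type. Both knockout arrays lay above the wild-type range, and the knockdown arrays fell on either side of it. The difference was 0.55 in knockout, a ratio of 1.46 (95% confidence interval 0.10 to 1.00, limma adjusted p = 0.317, unadjusted p = 0.0249), and 0.02 in knockdown (-0.43 to 0.48, adjusted p = 0.975). Knockout array 2 carried most of it: without that array the difference was 0.29, and without knockout array 1 it was 0.81. Knockout minus knockdown was 0.53 (limma adjusted p = 0.263), and 0.26 without knockout array 2.

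Rps27, the parent of that pair, shares its only probe set, 10597490, with the retrogene Rps27rt. Its log2 signals were 10.69 and 10.64 in knockout and 10.74 and 10.77 in knockdown, against 10.65, 10.69 and 10.60 in wild type. The 7 arrays lay within a narrow band, from 10.60 to 10.77, with both knockdown arrays just above the wild-type range. The difference was 0.01 in knockout (95% confidence interval -0.17 to 0.20, limma adjusted p = 0.959) and 0.11 in knockdown (-0.08 to 0.29, adjusted p = 0.607). Among p53 targets, a list of which the tested genes numbered 23 and which does not include Rps27l, 13 lay above the wild-type range on both knockout arrays (56.5%, against 13.2% of all genes) and limma called 0, with 11 higher at an unadjusted p under 0.05 (against 7.33% of all genes). Their median difference was 0.41 in knockout and -0.03 in knockdown, against -0.03 and 0.03 over all tested genes. Eda2r and Zmat3, both p53 targets, had the smallest p in knockout, at 2.86 and 1.26 (limma adjusted p = 0.0686 and 0.0783). In knockdown the smallest p belonged to Bbc3 (0.37, limma adjusted p = 0.199) and Ddb2 (0.48, adjusted p = 0.276).

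Rpl3l (gene identifier 66211, chr17:24727826-24736143, probe set 10442584) was near background on every array. Its log2 signals were 4.57 and 4.38 in knockout and 4.57 and 4.57 in knockdown, against 4.57, 4.37 and 4.74 in wild type, between percentiles 31.4 and 36.7 of the arrays. No group stood apart, and the differences were -0.08 in knockout (limma adjusted p = 0.802) and 0.01 in knockdown (adjusted p = 0.981). At this signal a fall could not have been measured. Of 18 striated muscle markers, 7 or 8 lay above the array median, and 0 of the 15 tested passed in either comparison by limma, with 1 at an unadjusted p under 0.05 in each (6.67%, against 12.8% of all genes in knockout and 14.1% in knockdown). The skeletal actin gene Acta1 had the smallest p in knockout (0.89, limma adjusted p = 0.124), and the muscle creatine kinase gene Ckm in knockdown (0.28, adjusted p = 0.283).

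Rpl3 was listed on 6 probe sets, always with Gm5879 and in 2 cases also with Rpl3-ps1, Ralgps2 and Syngr1. Of the 6, 4 lay higher and 2 lower in knockout, with differences from -0.11 to 0.49 and limma adjusted p from 0.356 to 0.936. On all 4 higher ones both knockout arrays lay above every wild-type array, as they did on 5 of the 11 shared probe sets and on 11.8% of all probe sets. The widest difference, 0.49 on probe set 10515154, was 0.26 without wild-type array 3. In knockdown 3 lay higher and 3 lower, from -0.29 to 0.29, with limma adjusted p from 0.513 to 0.972. Both knockdown arrays lay above the wild-type range on 5 of the 11 shared probe sets and below it on 1. The shares of all probe sets for these knockdown counts are not given here. The smallest p in knockout was that of probe set 10598721, which had 11.82 and 11.84 in knockout and 11.73 and 11.70 in knockdown, against 11.57, 11.66 and 11.59 in wild type. Its arrays were separate in both comparisons, yet the difference in knockout was only 0.22, a ratio of 1.17 (95% confidence interval 0.04 to 0.41, limma adjusted p = 0.356). Probe set 10546054 was low, from 4.26 to 5.47, and its arrays scattered within groups as much as between them.

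**Figure D2:**
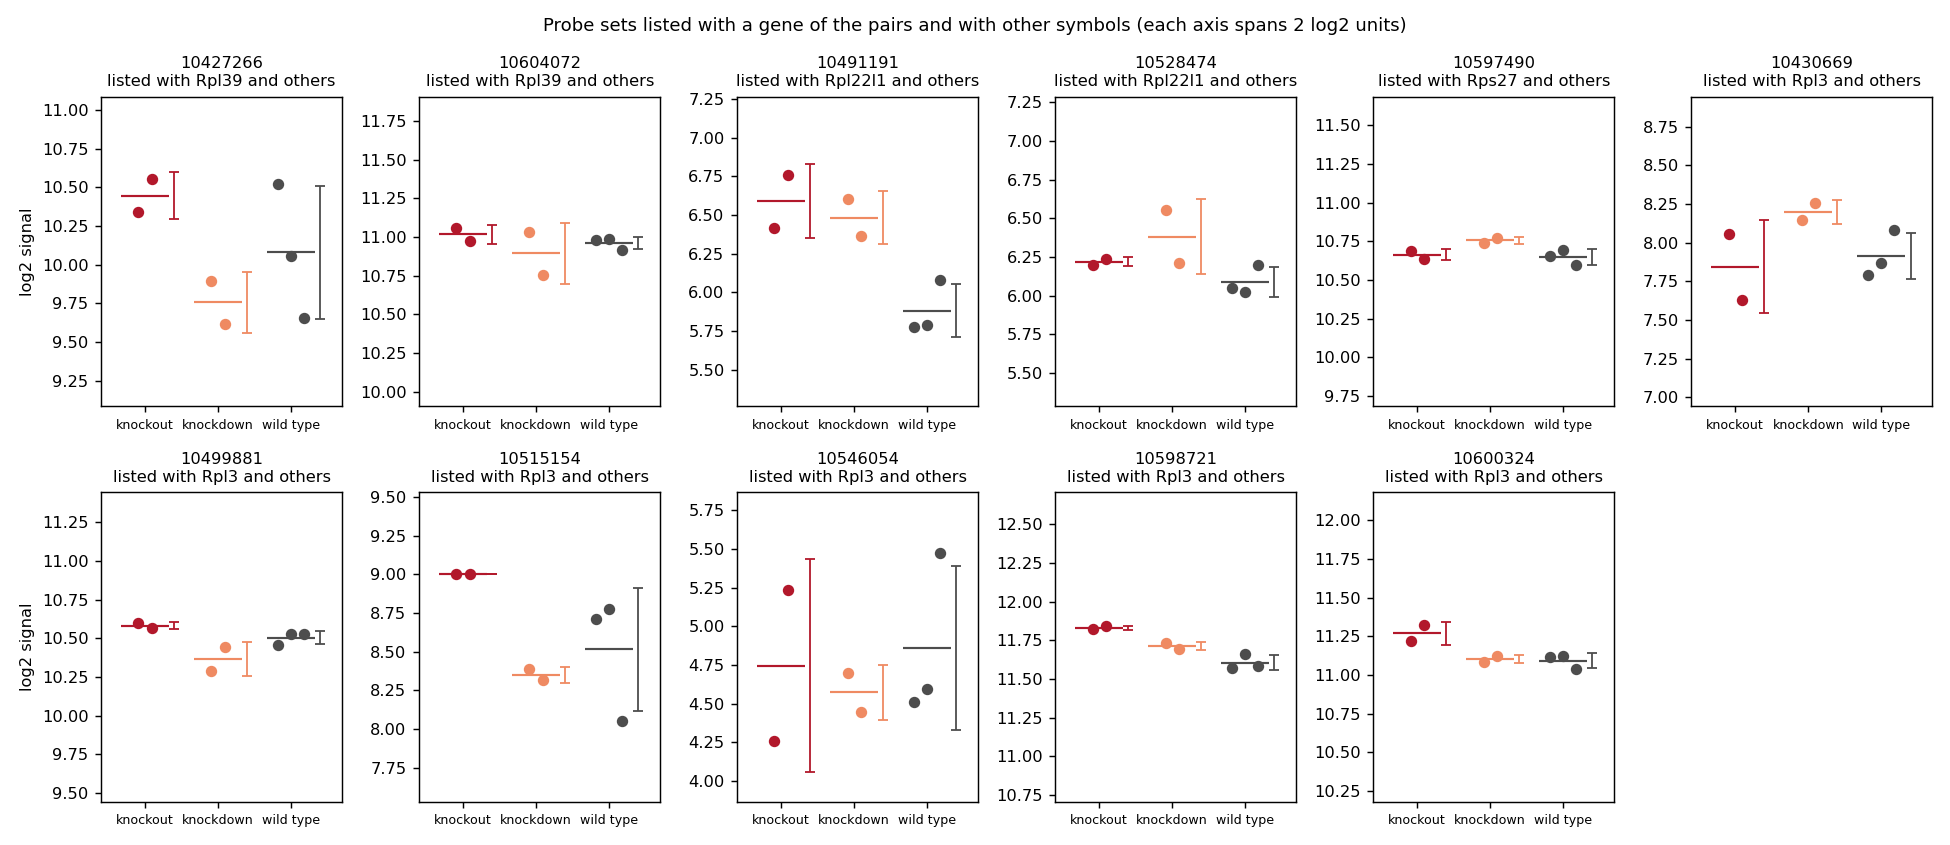
Log2 signal (vertical axes, each spanning 2 log2 units around its own centre) of the 11 probe sets listed with Rpl39, Rpl22l1, Rps27 or Rpl3 together with other symbols. Points are arrays, horizontal bars group means and error bars 1 SD. On probe set 10491191 the knockout and knockdown arrays, from 6.36 to 6.76, lie above the wild-type arrays, from 5.77 to 6.08.

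Across the pairs, limma called 0 of the 3 tested members with their own probe set in knockout (1 at an unadjusted p under 0.05, against 12.8% of all genes) and 0 of 4 in knockdown (1 at an unadjusted p under 0.05, against 14.1%). The share of all 16801 genes called was 0.167% in knockout and 0.0179% in knockdown. In the mean of both deficient groups against wild type limma called 0 of 3 (0 at an unadjusted p under 0.05), against 0.0298% of all genes (12.3% at that unadjusted p), and the differences were -0.03 for Rpl3l, -0.24 for Rpl22 and 0.29 for Rps27l. Between knockout and knockdown 0 of 3 were called, with 0.375% of all genes, and limma gave 1 at an unadjusted p under 0.05, against 17.9% of all genes. These comparisons share arrays and are not independent. Of the 11 shared probe sets limma called 0 in either comparison with wild type, with 2 at an unadjusted p under 0.05 in knockout and 1 in knockdown (11.4% and 12.5% of all probe sets).

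**Figure D3:**
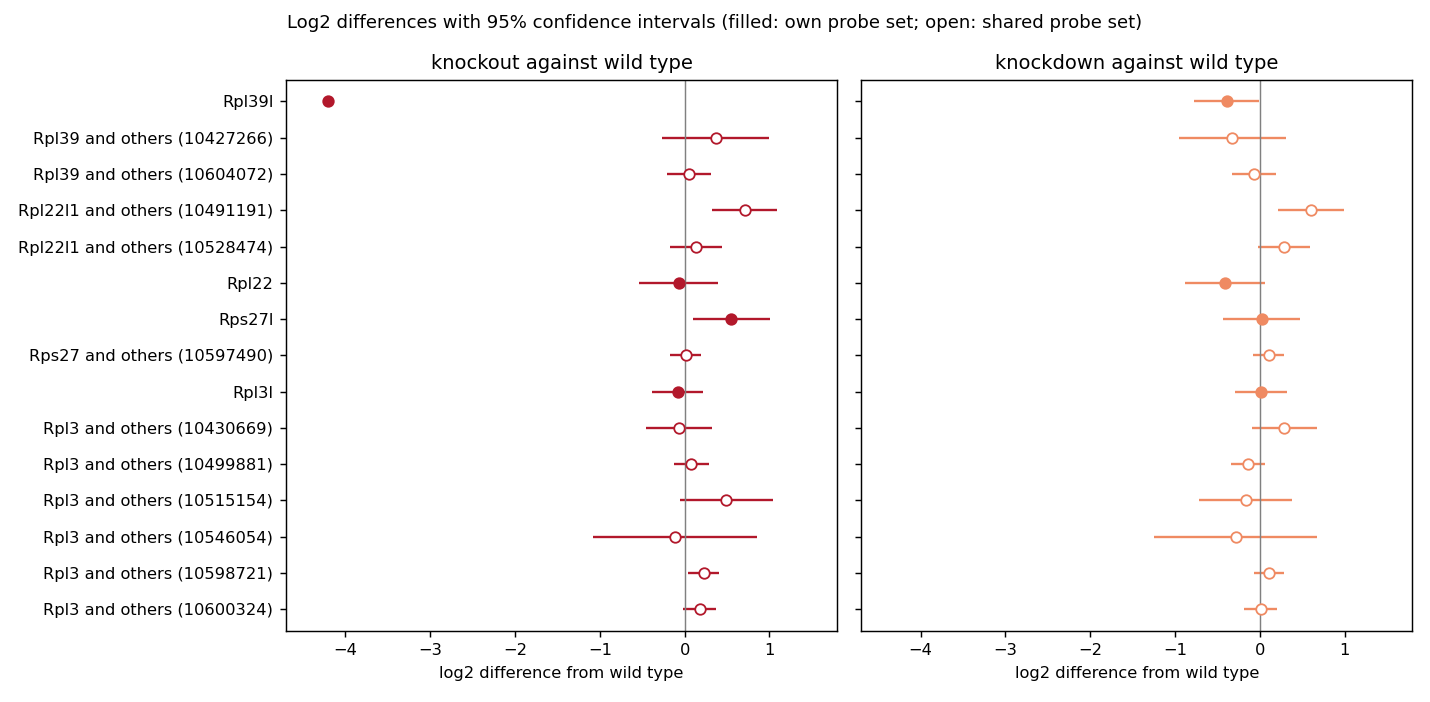
Log2 difference from wild type (horizontal axis) of every probe set of the pairs in knockout (left) and knockdown (right), grouped by pair. Filled points are genes with a probe set of their own, open points are shared probe sets, and lines are 95% confidence intervals, with none for Rpl39l in knockout because it was chosen for that value. Rpl39l lies at -4.21 in knockout and the shared probe sets between -0.11 and 0.71.

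A list of other paralogue pairs held Rpl7l1 and Rpl7, Rpl10l and Rpl10, Rpl36al and Rpl36a, and Rps4l and Rps4x, of which 7 genes were tested. Limma called 0 in knockout and 0 in knockdown (against 0.167% and 0.0179% of all genes). At an unadjusted p under 0.05 there were 0 in either (against 12.8% and 14.1%). All 7 lay lower in knockout, where 57.1% of all genes did. In knockdown 5 lay lower and 2 higher, while 42.9% of all genes lay lower. In each comparison 2 lay below the wild-type range (28.6%, against 15.3% of all genes in knockout and 12.9% in knockdown). Above it lay 0, against 13.2% of all genes in knockout, with the knockdown share not given here. Rps4l had the widest difference in knockout, -0.56 (limma adjusted p = 0.532), at 5.63 and 5.43 in knockout and 5.80 and 6.07 in knockdown, against 5.39, 6.49 and 6.38 in wild type. Its wild-type arrays spanned the values of the other groups. Rpl10, which encodes a protein of the large subunit, had the smallest p in knockdown (-0.16, limma adjusted p = 0.37), followed by Rpl10l (0.22, adjusted p = 0.606), and Rpl7 the smallest in knockout (-0.14, adjusted p = 0.53).

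Cytosolic ribosomal protein genes outside the pairs differed little, and more of them lay lower than higher. Of 77 listed, 53 had a probe set of their own and all 53 were tested. These 53 include Rpl7, Rpl10, Rpl36a and Rps4x, which the list of other paralogue pairs also holds. In knockout 42 lay lower and 11 higher, while 57.1% of all genes lay lower. The median difference was -0.05 against -0.03 over all genes. Both knockout arrays lay below the wild-type range on 13 (24.5%, against 15.3% of all genes) and above it on 4 (7.55%, against 13.2%). Limma called 0; at an unadjusted p under 0.05, 5 were lower (9.43%, against 5.5% of all genes) and 0 higher. In knockdown 33 lay lower and 20 higher, while 42.9% of all genes lay lower. The median was -0.03 against 0.03 over all genes. Both knockdown arrays lay below the wild-type range on 12 (22.6%, against 12.9% of all genes). They lay above it on 2 (3.77%), for which the share of all genes is not given here. Limma called 0, while 6 had an unadjusted p under 0.05 (11.3%, against 14.1% of all genes). Rpl21 had the smallest p in knockout, at 9.31 and 9.42 in knockout and 9.92 and 9.71 in knockdown, against 10.00, 9.76 and 9.79 in wild type (knockout difference -0.49, limma adjusted p = 0.18). Rps12 was lower in both groups, by -0.27 in knockout (limma adjusted p = 0.298) and -0.35 in knockdown (adjusted p = 0.196). Rps6, a small-subunit protein phosphorylated in response to growth signals, had the smallest p in knockdown, at 12.12 and 12.06 in knockout and 11.87 and 11.90 in knockdown, against 12.20, 12.28 and 12.20 in wild type (knockdown difference -0.34, limma adjusted p = 0.162). Rpl14 followed, at -0.49 in knockdown (limma adjusted p = 0.196).

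Genes of ribosome biogenesis had lower values in knockdown, with no single gene passing. Of 36 tested genes for nucleolar and assembly factors, 31 lay lower in knockdown, with a median difference of -0.30 against 0.03 over all genes. On 23 of the 36 both knockdown arrays lay below the wild-type range (63.9%, against 12.9% of all genes), and 18 were lower at an unadjusted p under 0.05 (50%, against 6.99%), although limma called 0. Nop2, an rRNA methyltransferase gene, had 8.84 and 8.82 in knockdown against 9.50, 9.35 and 9.51 in wild type (-0.62, limma adjusted p = 0.108). Dkc1, which encodes the pseudouridine synthase dyskerin, had 9.45 and 9.35 in knockdown against 10.01, 9.93 and 9.89 in wild type (-0.54, limma adjusted p = 0.11). In knockout the list median was -0.10 against -0.03 over all genes, with 14 of 36 below the wild-type range (38.9%, against 15.3%) and 0 called. Bop1, needed to process rRNA of the large subunit, lay higher in knockout (0.58, limma adjusted p = 0.124) and Tcof1, which promotes rRNA transcription, lower (-0.34, adjusted p = 0.223). The median deviation of the list from each gene's mean over the arrays was 0.02 and 0.01 in knockout and -0.23 and -0.13 in knockdown, against 0.14, 0.09 and 0.06 in wild type.

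Of 78 tested mitochondrial ribosomal protein genes limma called 0 in both comparisons, with medians of -0.02 in knockout and 0.01 in knockdown. At an unadjusted p under 0.05 there were 8 in knockout (10.3%, against 12.8% of all genes) and 12 in knockdown (15.4%, against 14.1%), shares near those of all genes. Mrpl58 (-0.39, limma adjusted p = 0.184) and Mrpl13 (0.66, adjusted p = 0.214) had the smallest p in knockout, and Mrpl37 (-0.86, adjusted p = 0.123) and Mrpl20 (-0.58, adjusted p = 0.202) in knockdown. Of 29 tested translation factor genes limma called 0 in both comparisons. In knockout 8 were higher at an unadjusted p under 0.05 (27.6%, against 7.33% of all genes) and 1 lower. There 10 lay above the wild-type range (34.5%, against 13.2%) and 3 below it (10.3%, against 15.3%). In knockdown 4 were lower at that p (13.8%, against 6.99%) and 1 higher. There 11 lay below the wild-type range (37.9%, against 12.9%) and 6 above it (20.7%, with the share of all genes not given here). Their medians were -0.03 in knockout and -0.10 in knockdown. Eif2s2, a subunit of the factor that brings the initiator tRNA (0.40, limma adjusted p = 0.164), and Eif4b (0.37, adjusted p = 0.251) had the smallest p in knockout, and Eif3i (-0.41, adjusted p = 0.188) and Gspt1 (-0.28, adjusted p = 0.252) in knockdown.

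**Figure D4:**
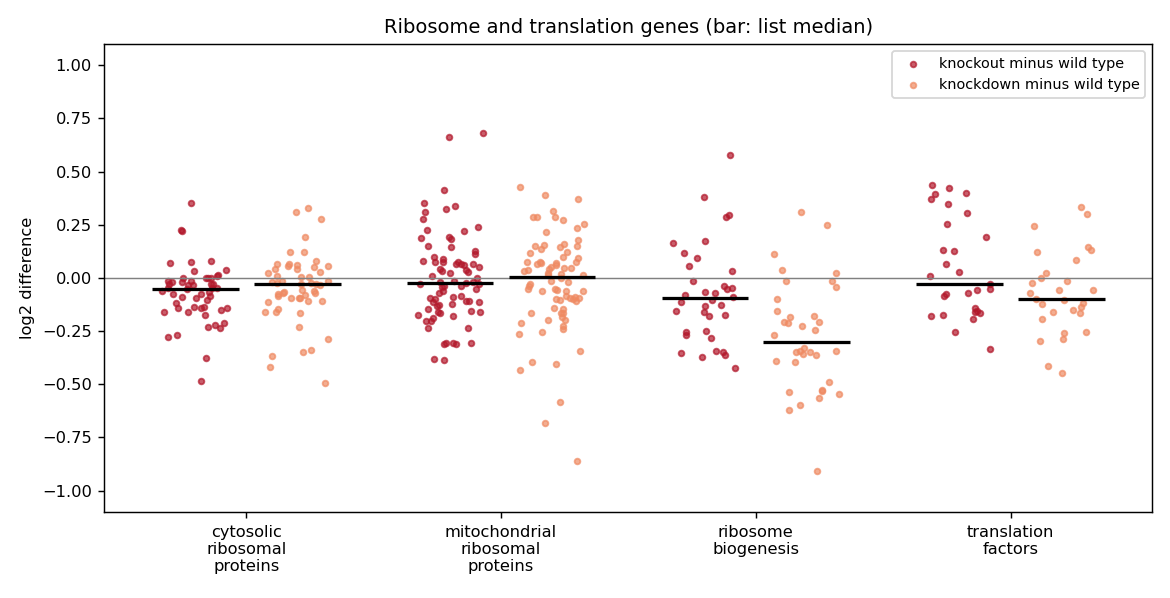
Log2 difference from wild type (vertical axis) of each tested gene in 4 lists, knockout left and knockdown right in each list. Points are genes, spread sideways at random, and black bars are list medians. The ribosome biogenesis list has its knockdown median at -0.30, and the cytosolic ribosomal protein list lies near 0 in both groups.

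Markers of male germ cells, where Rpl39l is best known, stood near background. Of 20 such markers 2 lay above the array median on every array, and 11 were tested. Limma called 0 in knockout, with 0 at an unadjusted p under 0.05, and 0 in knockdown, with 1 (9.09%, against 14.1% of all genes). Their median difference was -0.04 in knockout and 0.06 in knockdown. The sum of log2 signals over the 20 markers was 81.04 and 80.73 in knockout and 82.88 and 82.70 in knockdown, against 81.02, 81.80 and 82.01 in wild type. Between 10 and 12 of the 20 lay above the 25th percentile of each array. The 2 above the median were Prm1, from 5.57 to 5.86, and Prm2, from 5.58 to 5.76. Ddx4, from 3.53 to 3.71, and Dazl, from 3.15 to 3.47, were among those below the 25th percentile of every array. Acr and Tex101 had the smallest p in knockout (-0.29 and -0.14, limma adjusted p = 0.453 and 0.532), and Tnp1 in knockdown (0.38, adjusted p = 0.236).

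No tested neighbour of Rpl39l on chromosome 16 fell as far as Rpl39l in knockout. The neighbours lay from 22.5 to 1760.9 kb away. Some, among them Atf7ip2 at 22.5 kb, stood near background in wild type too, where such a fall could not have been measured. Of 10 annotated protein-coding genes on each side, 19 of the 20 were tested, and limma called 0, with 3 at an unadjusted p under 0.05 (15.8%, against 12.8% of all genes). Their median difference was 0, and they ran from -0.74 to 1.13. The nearest gene on the higher-coordinate side, Atf7ip2, had 4.31 and 3.99 in knockout and 4.51 and 4.38 in knockdown, against 5.45, 4.58 and 4.62 in wild type (knockout difference -0.74, limma adjusted p = 0.363). Both knockout arrays lay below the wild-type range, at signals close to background. Tekt5, which encodes a tektin of sperm flagella, also lay lower (-0.41, limma adjusted p = 0.324), as did Nubp1 (-0.16, adjusted p = 0.558). Abat, the gene of GABA transaminase (1.13, limma adjusted p = 0.391), and Carhsp1 (0.69, adjusted p = 0.351) lay above the wild-type range. In all, 2 neighbours lay above and 3 below that range on both knockout arrays, against 13.2% and 15.3% of all genes.

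**Figure D5:**
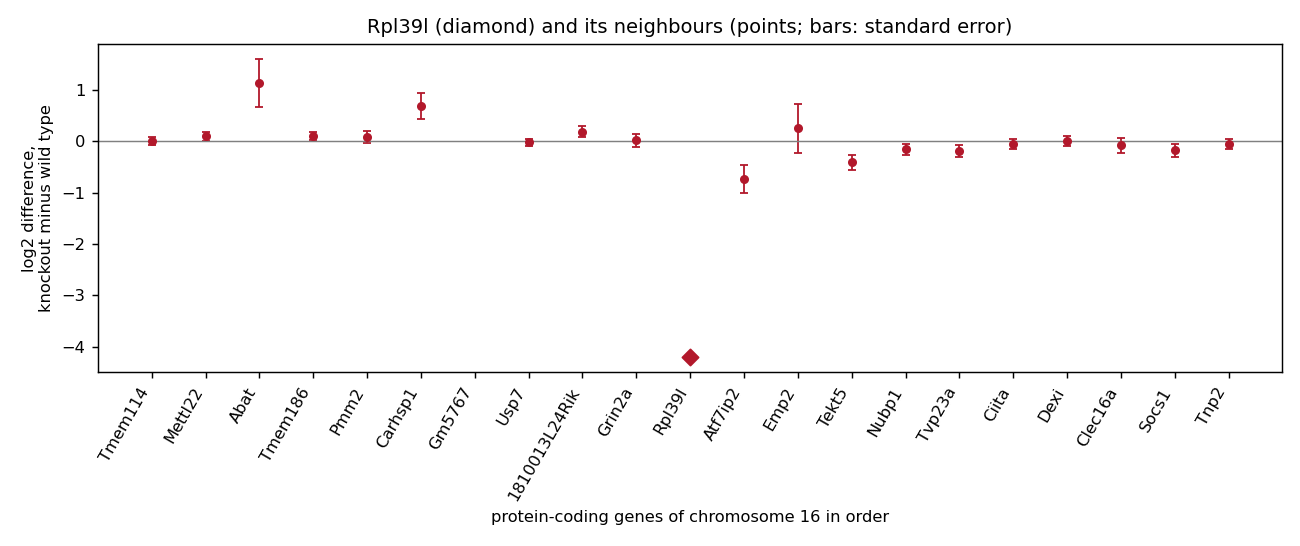
Log2 difference in knockout from wild type (vertical axis) for Rpl39l (diamond) and the 10 annotated protein-coding genes on each side of it on chromosome 16, in gene order (horizontal axis). Points are tested genes and bars their standard errors, and Gm5767 was not tested. Rpl39l lies at -4.21 and its neighbours between -0.74 and 1.13.

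The genes most like Rpl39l were sought over all 7 arrays. Among 2827 tested genes with an SD of at least 0.3, Pearson's r with Rpl39l was 0.98 for Gcnt4, 0.98 for Mlkl, 0.97 for Capn6, 0.96 for Atp10a and 0.96 for Nr2f1. It was lowest for Grb10, Hoxc8 and Hoxc6, at -0.99 for each. These values include the contrast between 2 knockout arrays and the other 5. Over the 5 arrays without knockout, r was 0.35 for Gcnt4, -0.02 for Mlkl, 0.64 for Capn6, -0.33 for Atp10a and 0.24 for Nr2f1. It was -0.69 for Grb10, -0.81 for Hoxc8 and -0.45 for Hoxc6. Capn6, a member of the calpain family, had 6.44 and 7.42 in knockout and 9.54 and 9.72 in knockdown, against 10.27, 9.67 and 9.14 in wild type. Nr2f1, a nuclear receptor gene, had 5.06 and 6.02 in knockout and 9.35 and 8.05 in knockdown, against 8.99, 8.89 and 8.64 in wild type. Atp10a, a phospholipid-transporting ATPase gene, had 7.06 and 7.31 in knockout and 7.95 and 7.91 in knockdown, against 7.92, 7.93 and 8.08 in wild type.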

How the data were processed

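The deposited values are log2 signals of 34760 probe sets on 7 Affymetrix arrays, and the submitters' processing notes name R 2.8.0 and affy. Background correction and summarisation: not given in the sources used here. Of all probe sets, 46.2% held the same value on 2 or more arrays, which lowers their apparent spread. Array medians ran from 5.38 to 5.49, and the number of arrays limits the precision. Probe sets were named from GEO's platform annotation: 21640 had 1 symbol, 1321 several and 11799 were not listed. For each gene the single-symbol probe set of highest mean was kept where it exceeded the array's 25th percentile on at least 2 arrays. Group means over all 7 arrays were compared in R 4.3.3 by two-sided moderated tests of limma 3.58.1 (lmFit, then eBayes), with Benjamini-Hochberg adjustment over 16801 genes and a threshold of 0.05. Shared probe sets were fitted over 26896 probe sets, a choice made after seeing that 4 genes had no probe set of their own. The fit was tested on simulated data. The members and lists were chosen with earlier results of these data known. Beside all members, the text names genes among the 2 of smallest p in knockout and in knockdown. It does so for the ribosome, translation, p53 target, male germ cell and striated muscle lists. The fibroblast, macrophage and blood, endothelial and epithelial lists are given only by counts above the array median. It also names the 5 genes most and 3 least correlated with Rpl39l, and neighbours outside the wild-type range. The germ cell markers Ddx4, Dazl, Prm1 and Prm2 are named for their levels.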

Additional observations from a re-analysis of the deposited data

How the results depend on the processing

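Across 17 alternatives (16 for the deficient groups together), the count of called members and of called ribosomal protein genes stayed at 0 by limma in all 4 comparisons, beside the unadjusted counts given above. Of 41 results 10 changed sign in 39 cases, all of them differences that did not pass, and the cause was not tested. Not all were small: probe set 10546054, of low signal, reached 0.37 in knockout with 1 array left out, against -0.11 in the main fit. With quantile normalization the difference was -0.00546 for probe set 10597490 in knockout and -0.00762 for Rpl3l in knockdown. With arrays centred on their medians it was, in knockdown, -0.0173 for 10600324, -0.0161 for Rpl3l and -0.00512 for Rps27l. With array weights it was 0.00555 for 10546054, -0.00509 for 10597490 and 0.00161 for Rpl3l in knockout, and -0.00167 for 10600324 and -0.0349 for Rps27l in knockdown. Without both deficient arrays numbered 2 it was 0.15 for 10430669 and 0.0111 for Rpl3l in knockout, and -0.00697 for 10600324, 0.0741 for 10604072 and -0.15 for Rps27l in knockdown. With 1 array left out at a time, the knockout difference ran from -0.28 to 0.15 for 10430669, -0.60 to 0.37 for 10546054, -0.0111 to 0.0400 for 10597490, -0.15 to 0.0576 for Rpl22 and -0.18 to 0.0111 for Rpl3l. The knockdown difference ran from -0.46 to 0.0202 for 10546054, -0.0164 to 0.0310 for 10600324, -0.21 to 0.0741 for 10604072, -0.0805 to 0.10 for Rpl3l and -0.15 to 0.20 for Rps27l.

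Deviations of same-numbered arrays correlated between -0.07 and 0.20, and those of differently numbered arrays between -0.21 and 0.21. With 2 arrays in a deficient group the deviations are mirror images, so few of these values are independent. Whether the replicate numbers pair the arrays cannot be settled from them. With the replicate number as a block, which leaves wild-type array 3 alone in its block, the count of called members stayed at 0 by limma. The difference was then 0.0167 for 10430669, 0.19 for 10546054, -0.0111 for 10597490 and 0.00538 for Rpl3l in knockout, and 0.0202 for 10546054, -0.0164 for 10600324 and -0.0174 for Rps27l in knockdown.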
